A study of Mus musculus with 15 samples.

Results

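mmu-miR-103-3p and mmu-miR-107-3p, called miR-103-3p and miR-107-3p here, are a pair of nearly identical microRNAs (miRNAs) encoded in introns of the pantothenate kinase genes. They were followed in mouse plasma in the CLP model of sepsis. CLP stands for cecal ligation and puncture, in which the cecum is tied and pierced so that gut contents leak and infect the abdomen with many kinds of bacteria. Both were found by name among the 1205 rows of the miRNA count table, 1 row each, which gave 2 members. Small RNA had been sequenced from plasma freed of platelets, taken 24 hours after surgery from male wild type mice of strain C57BL/6J. The CLP group held 9 libraries and the group of sham-operated mice held 6. The labels give no age, no severity of the CLP and no treatment after surgery, and they do not state that each number is a separate mouse, so the spread between libraries may be partly technical. The members were chosen by their counts in these libraries, with their difference between CLP and sham known. Their fold changes are therefore given as a description, without a test.

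A miRNA is a short RNA that guides an Argonaute protein to messenger RNAs, mostly through its seed, bases 2 to 8 from the 5′ end. It is cut from a hairpin whose arms each give a strand, named 5p and 3p, and usually only one of them is kept. miR-103-3p and miR-107-3p are the strands usually kept from their hairpins. In mice they are known for lowering insulin sensitivity in liver and fat, and in human blood work miR-103-3p is often used as a reference to which other miRNAs are scaled. Pantothenate kinases, the products of the host genes, catalyse the committed step of coenzyme A synthesis.

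The mature sequences are shown because they explain which counts can be told apart. They were taken from RefSeq annotation of GRCm38.p6 (mm10), run 5′ to 3′, and carry the seed in capitals.
miR-103-3p: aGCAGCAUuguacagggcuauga
miR-107-3p: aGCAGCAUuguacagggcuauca
Both are 23 bases long and share their seed and their first 21 bases. They differ by 1 substitution, G22C, written with the base of miR-103-3p first and counted from the 5′ end. A read that ends before base 22 therefore matches both. Counts that were not whole numbers occurred in 6 libraries for miR-103-3p and in 7 for miR-107-3p, and 6 libraries held them in both rows. How the pipeline assigned such reads was not given in the sources used here, so the division of counts between the members is less certain than their sum.

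The pair comes from 3 hairpins, shown to place both strands, with both mature arms in capitals and the 5p arm first.
Mir103-1: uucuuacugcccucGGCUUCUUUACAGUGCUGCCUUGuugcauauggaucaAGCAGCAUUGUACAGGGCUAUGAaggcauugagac
Mir103-2: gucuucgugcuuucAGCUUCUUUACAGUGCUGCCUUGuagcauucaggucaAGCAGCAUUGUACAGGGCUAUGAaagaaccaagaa
Mir107: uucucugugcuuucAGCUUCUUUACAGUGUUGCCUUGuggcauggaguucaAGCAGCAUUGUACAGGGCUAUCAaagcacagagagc
Mir103-1 lies at chr11:35782396-35782481 on the plus strand, in intron 5 of Pank3. Mir103-2 lies at chr2:131288052-131288137 on the plus strand, in intron 5 of Pank2. Mir107 lies at chr19:34820687-34820773 on the minus strand, in intron 5 of Pank1. Each hairpin has the strand of its host gene, and every GENCODE M21 transcript that spans a hairpin has it in an intron, 1 transcript of Pank3, 7 of Pank2 and 3 of Pank1. miR-103-3p is the same sequence from both Mir103 loci, so its counts cannot be assigned to Pank2 or Pank3. The 5p arms of the Mir103 loci differ by A1G, from Mir103-2 to Mir103-1, and that of Mir107 differs from the Mir103-2 arm by C16U.

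Library totals ran from 5274676 to 13576482 counts. Levels are given as CPM, counts scaled to a common library total, after TMM scaling, which sets library sizes so that most miRNAs do not differ on average. Differences across all miRNAs were tested with the quasi-likelihood test of edgeR, with Benjamini-Hochberg adjustment over 426 miRNAs abundant enough to test and a threshold of 0.05. Of these, 201 were called, or 47.2%, 108 of them higher in CLP (25.4%) and 93 lower (21.8%), and the median log2 fold change was 0.11. Both members were among the 426. Adapter ligation favours some RNA ends and the libraries had been pooled at equal molarity, so every level is relative to the other miRNAs of its library. In plasma, fewer releasing cells and less RNA released per cell cannot be told apart.

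Plasma miR-103-3p stood higher in CLP than in sham libraries, by more than the SD of either group. In CLP libraries 1 to 9 it stood at 187, 119.5, 94.6, 92.7, 61.7, 133.8, 83.9, 66.2 and 180.4 CPM. In sham libraries 1 to 6 it stood at 42.2, 51.7, 62.9, 14.4, 18.6 and 16.8 CPM. CLP 1 and CLP 9 were highest, and 8 of 9 CLP libraries lay above every sham library. The exception was CLP 5, just under sham 3. With library size alone as the scaling, CLP 5 and CLP 8 stood at 58.5 and 56.3 CPM, both under sham 3 at 74.0 CPM. The means were 113 ± 46.0 CPM in CLP (SD, n = 9) and 34.4 ± 20.7 CPM in sham (SD, n = 6), with a log2 fold change of 1.72 ± 0.37 (SE). The raw counts behind these levels ran from 425 to 1694 in CLP and from 86.5 to 412 in sham. The 95% Wilson interval reached 4.76% of the value to either side in CLP 6, the most precise library, and 21.3% in sham 4, the least. Such intervals cover counting error only.

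miR-107-3p was scarcer and showed the same order of groups. CLP libraries 1 to 9 held 27.3, 16.0, 12.6, 17.3, 15.7, 23.0, 13.01, 13.5 and 24.4 CPM. Sham libraries 1 to 6 held 10.1, 12.4, 9.93, 3.01, 4.80 and 2.89 CPM. Under TMM scaling all 9 CLP libraries lay above all 6 sham libraries, although CLP 3 and sham 2 almost met. With library size alone as the scaling the groups overlapped. CLP 3, CLP 7 and CLP 8 then stood at 10.6, 13.05 and 11.5 CPM, below sham 2 at 13.3 CPM. Of the 426 tested miRNAs, 8.45% had every CLP library above every sham library, and nothing is read from the place of miR-107-3p among them. The means were 18.1 ± 5.43 CPM in CLP and 7.19 ± 4.12 CPM in sham (SD), and the log2 fold change was 1.33 ± 0.34 (SE). Its counts were low, from 87 to 291 in CLP and from 18.5 to 97 in sham. The 95% interval accordingly reached 47.4% of the value to either side in sham 4 and was nowhere narrower than 11.5%.

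**Figure D1:**
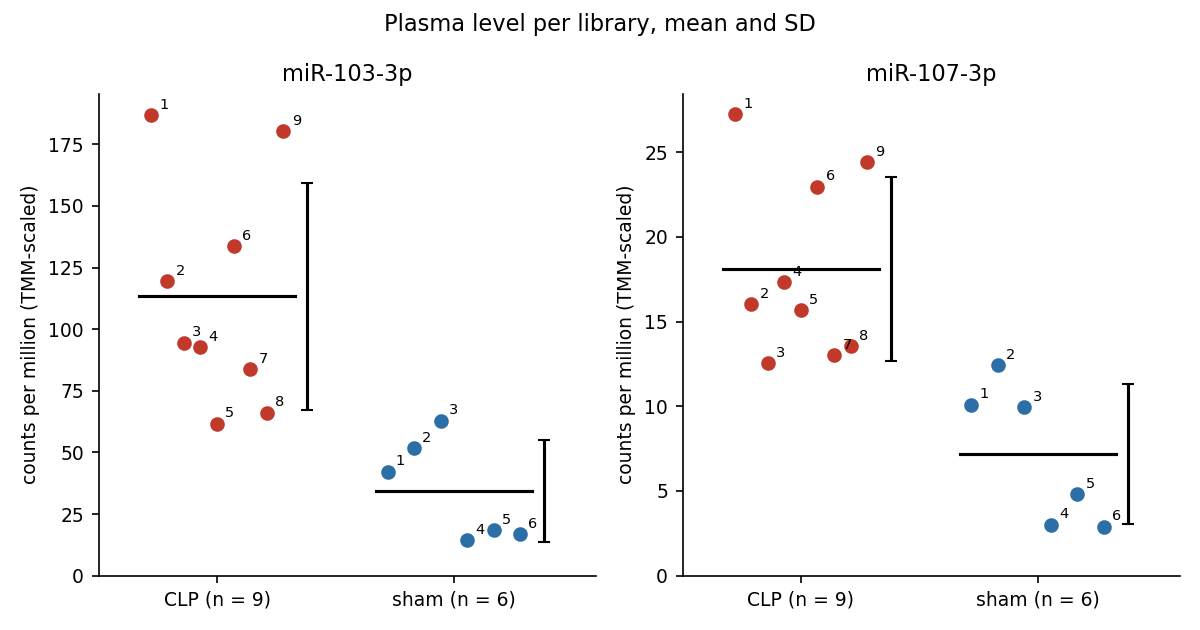
Levels of miR-103-3p (left) and miR-107-3p (right) in TMM-scaled CPM, with 1 numbered point per library, the CLP group left of the sham group; horizontal lines are group means and vertical bars SD. For miR-107-3p every CLP point stands above every sham point, for miR-103-3p only CLP 5 does not, and sham 1 to 3 stand above sham 4 to 6 in both panels.

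The plot of levels by library shows that the sham libraries were not one cloud. Sham 1 to 3 held 42.2 to 62.9 CPM of miR-103-3p, and sham 4 to 6 held 14.4 to 18.6 CPM. The same libraries parted for miR-107-3p. They also parted for the red cell miRNA miR-451a, with 7841 to 11921 CPM in sham 1 to 3 and 3482 to 5066 CPM in sham 4 to 6. The part of red cell content, or of any batch, in this split was not tested, and the labels name no batch. Leaving out sham 6 gave the lowest log2 fold changes of the 15 single omissions, 1.46 for miR-103-3p and 1.05 for miR-107-3p.

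Lists of miRNAs of known origin are read against the 47.2% called over all 426 tested miRNAs (25.4% higher, 21.8% lower). The red cell list had 6 tested rows, of which 1 was called (16.7%), miR-451a, lower in CLP. Its summed level was 81551 to 377764 CPM in CLP and 157359 to 454629 CPM in sham, and no marker found was at 0. With the red cell ratio, the log2 ratio of red cell miR-451a to miR-23a-3p, as a covariate, the log2 fold changes were 1.58 for miR-103-3p and 1.46 for miR-107-3p. That ratio itself averaged -1.41 ± 0.99 in CLP and -0.44 ± 0.67 in sham (SD). The covariate is thus partly confounded with the group. The platelet list had 4 of 7 tested rows called (57.1%), 3 higher and 1 lower in CLP, with summed levels of 19231 to 35389 CPM in CLP and 14484 to 22726 CPM in sham. The striated muscle list had 4 of 7 called (57.1%), all higher in CLP, with 5022 to 40714 CPM in CLP and 482 to 7253 CPM in sham. The liver list had 2 of 6 called (33.3%), both higher, with 14279 to 147028 CPM in CLP and 22557 to 46208 CPM in sham. The part of these cell types in the difference of the pair was not tested.

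The make-up of the pair was compared as a ratio within each library, which no scaling can change. miR-107-3p made up 14.4% ± 2.88 of the counts of the pair in CLP (SD, n = 9) and 17.6% ± 2.76 in sham (SD, n = 6). The CLP libraries ran from 11.8% to 20.3% and the sham libraries from 13.6% to 20.6%, so the groups overlapped over most of their range. The highest CLP share was that of CLP 5, the library with the lowest miR-103-3p level of its group under TMM scaling. Added together, the members held 131 ± 50.9 CPM in CLP and 41.6 ± 24.5 CPM in sham (SD). Treated as 1 row, the pair had a log2 fold change of 1.64, a value that does not depend on how reads were divided between the members. The fold changes of the members taken singly do depend on that division.

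The 5p arms, the strands usually discarded, were not part of the choice of members, and the one that could be tested was not called. They are shown with seeds in capitals.
miR-103-1-5p: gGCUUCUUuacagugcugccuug
miR-103-2-5p: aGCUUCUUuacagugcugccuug
miR-107-5p: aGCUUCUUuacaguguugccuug
miR-103-2-5p averaged 2.67 ± 2.43 CPM in CLP and 2.01 ± 1.41 CPM in sham (SD), and edgeR gave a log2 fold change of 0.39 ± 0.63 (SE) with an adjusted p of 0.633. Without CLP 1 the log2 fold change was -0.08, so even its direction rested on that library. miR-103-1-5p was too scarce to test, at 1.23 ± 1.20 CPM in CLP and 1.09 ± 0.756 CPM in sham (SD). Since these arms differ only at base 1, reads trimmed there match both, and both rows held counts that were not whole in 9 libraries. miR-107-5p was nearly absent, with 1 count in 1 CLP library and 2 counts in 1 sham library. For comparison, miR-107-3p summed to 1363.5 counts in CLP and 320 in sham.

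**Figure D2:**
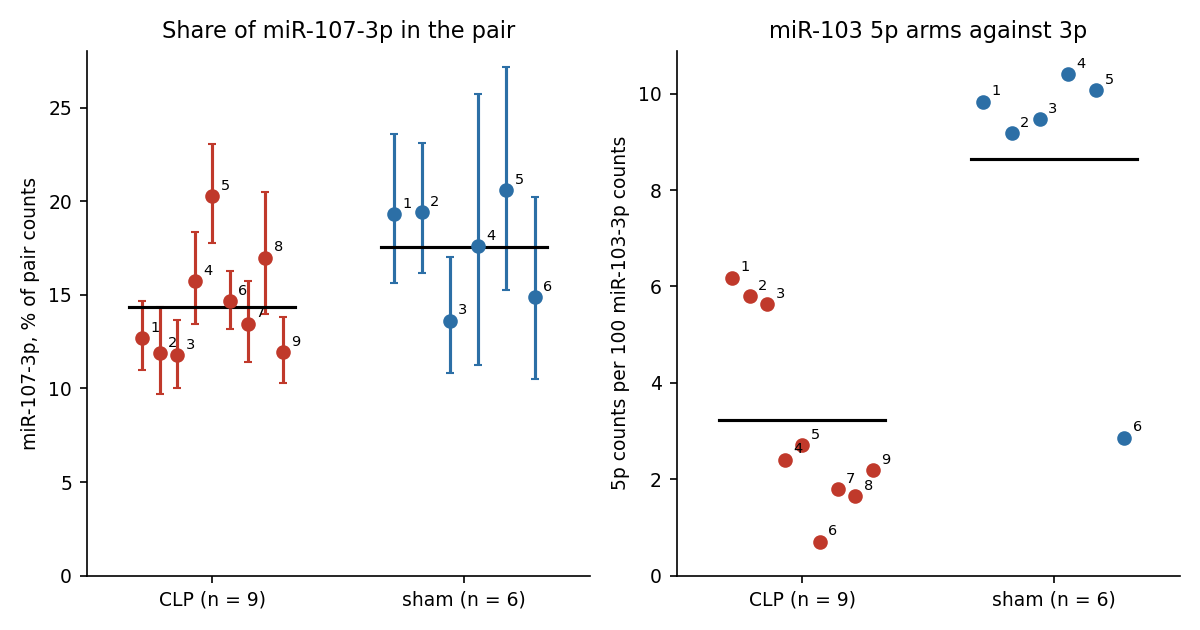
Left, the share of miR-107-3p in the summed counts of the pair, in percent, with 95% Wilson intervals; right, summed counts of the 5p arms of Mir103-1 and Mir103-2 per 100 counts of miR-103-3p. Points are numbered libraries, CLP left of sham, and lines are group means; the left panel overlaps widely, and in the right panel all sham libraries but sham 6 stand above all CLP libraries.

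The 5p arms were also set against the 3p strand within each library. Per 100 counts of miR-103-3p there were 3.23 ± 2.06 summed 5p counts in CLP (SD, n = 9) and 8.64 ± 2.86 in sham (SD, n = 6). Sham 1 to 5 lay between 9.18 and 10.4, above every CLP library, while sham 6 was at 2.87. In CLP, libraries 1 to 3 stood at 5.63 to 6.18 and libraries 4 to 9 at or under 2.71. The numerator was small, from 7 to 67 counts in CLP and from 5 to 39 in sham. The denominator is the count by which the members were chosen, so the ratio is a description and carries no test.

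The motif AGCAGC starts at base 1 or 2 in 9 of the 1003 rows that matched a RefSeq mature sequence, or 0.897% of them. Besides the pair these are 7 relatives of the miR-15 and miR-16 family, a family known for restraining the cell cycle. Examples are shown with AGCAGC in capitals, 1 base further in than in the pair.
miR-103-3p: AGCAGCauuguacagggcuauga
miR-15b-5p: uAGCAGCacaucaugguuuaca
miR-15a-5p: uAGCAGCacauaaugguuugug
miR-16-5p: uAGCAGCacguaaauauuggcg
miR-195a-5p: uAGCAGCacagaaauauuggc
The shift by 1 base gives the relatives another seed, so a shared AGCAGC is not a shared seed. Of the 7, edgeR called 3, or 42.9%, near the 47.2% over all tested miRNAs. Their median log2 fold change was 0.35, against 0.11 over all 426.

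miR-15b-5p rose, with 76.8 ± 19.3 CPM in CLP and 34.1 ± 8.97 CPM in sham (SD), every CLP library above every sham library. Its log2 fold change was 1.17 ± 0.22 (SE), with an edgeR adjusted p of 0.000247. miR-15a-5p also rose, at 22.6 ± 8.86 CPM in CLP and 11.4 ± 4.94 CPM in sham (SD), a log2 fold change of 0.98 ± 0.30 (SE, edgeR adjusted p = 0.0116). miR-195a-5p fell, at 29.2 ± 6.73 CPM in CLP and 46.7 ± 17.9 CPM in sham (SD), a log2 fold change of -0.68 ± 0.23 (SE, edgeR adjusted p = 0.0238). The call of miR-15a-5p ended under 6 of 28 other settings, where the adjusted p ran from 0.00542 to 0.0847. Among these were the red cell covariate (0.0599), omission of sham 6 (0.0642) and library size alone (0.0568). The call of miR-195a-5p ended under 4 of 28, with a range from 0.00262 to 0.0839, among them the red cell covariate (0.0699) and omission of sham 5 (0.0839).

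miR-16-5p, the most abundant relative, averaged 1844 ± 493 CPM in CLP and 1736 ± 661 CPM in sham (SD) and was not called, at a log2 fold change of 0.09 ± 0.23 (SE, edgeR adjusted p = 0.778). The sign of so small a value turned with library size alone and with upper-quartile factors as the scaling. miR-503-5p, miR-497a-5p and miR-322-5p were not called either, with log2 fold changes of -0.11 ± 0.22, 0.45 ± 0.34 and 0.35 ± 0.51 (SE). Summed, the relatives ran from 1442 to 2915 CPM in CLP and from 1274 to 3006 CPM in sham, overlapping almost fully.

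To see which miRNAs varied with the pair inside the groups, log2 CPM was centred within each group and correlated over the 15 libraries with 248 tested miRNAs of at least 10 CPM on average. These correlations are descriptions, since points share the scaling of their library. The closest to miR-103-3p was miR-107-3p, at r = 0.91. Then came let-7g-5p at 0.91, let-7i-5p at 0.89, miR-15a-5p at 0.89 and miR-17-5p at 0.87. For miR-107-3p the order was miR-103-3p at 0.91, let-7g-5p at 0.84, let-7i-5p at 0.84, miR-20a-5p at 0.84 and miR-93-5p at 0.83. Members of the pair also share divided reads, whose part in their own correlation was not tested. let-7g-5p parted the sham libraries as the pair did, with 1508 to 2013 CPM in sham 1 to 3 and 871 to 900.5 CPM in sham 4 to 6, and within CLP alone its r with miR-103-3p was 0.86.

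**Figure D3:**
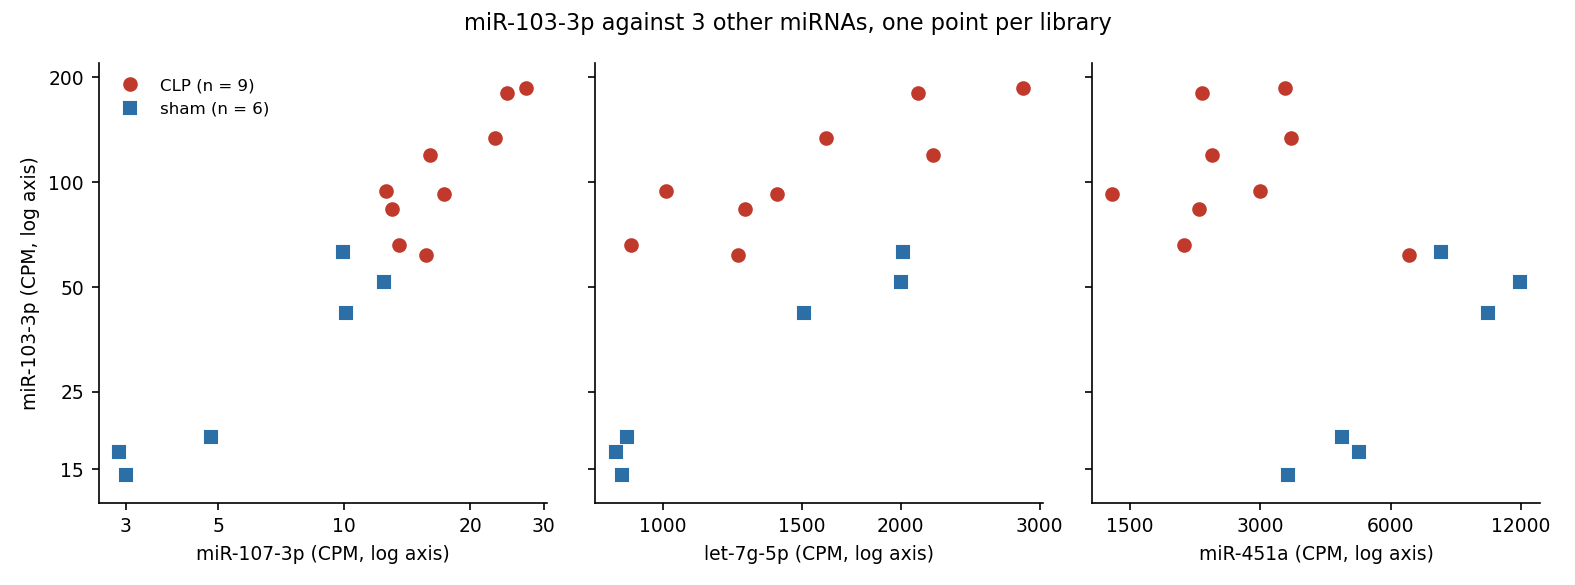
miR-103-3p level on the vertical axis against miR-107-3p (left), let-7g-5p (middle) and miR-451a (right), all in TMM-scaled CPM on log axes, with 1 point per library, CLP as circles and sham as squares. Sham points lie in a low and a high set of 3 in each panel, and within CLP miR-451a and miR-103-3p have r = -0.10.

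Within the 9 CLP libraries alone, miR-103-3p and miR-107-3p had Pearson r = 0.84 and Spearman rho = 0.73, with exact two-sided permutation p of 0.00659 and 0.0311. After Benjamini-Hochberg adjustment over 10 relations the values were 0.0659 and 0.241, past no threshold. Without CLP 1 and CLP 9, the libraries farthest from the median, r was 0.59, so much of the relation rested on them. miR-451a and miR-103-3p had r = -0.10 and rho = 0.20 in CLP (exact permutation p = 0.808 and 0.613, adjusted 0.808 and 0.805), and r = 0.50 without CLP 4 and CLP 5. Library total and miR-103-3p had r = -0.45 and rho = -0.42 in CLP (exact permutation p = 0.218 and 0.270, adjusted 0.436 and 0.449), and r = -0.75 without CLP 3 and CLP 6. In sham, miR-103-3p had Pearson r = 0.95 with miR-107-3p, 0.89 with miR-451a and -0.26 with library total. The adjusted exact permutation p was 0.106, 0.142 and 0.808 in that order. Those 6 libraries formed sets of 3, so nothing is read from their correlations.

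A reference miRNA should vary little and not differ between the groups compared. Over all 15 libraries the SD of log2 CPM was 1.16 for miR-103-3p and 0.94 for miR-107-3p. Of 123 miRNAs with at least 100 CPM on average, 108 varied less than miR-103-3p (87.8%) and 90 less than miR-107-3p (73.2%). The members averaged 81.7 and 13.7 CPM themselves, where counting error is larger, and with all miRNAs of at least 10 CPM the shares were 87.5% and 72.6%. The median SD among the 123 was 0.66. The steadiest were miR-652-3p at 0.18, miR-140-3p at 0.20, miR-30a-5p at 0.21, miR-30e-5p at 0.21 and miR-503-3p at 0.25. The SD over all libraries includes the difference between groups, which was known when the members were chosen. Variation inside the groups, which leaves that difference out, was smaller but not low. By the SD within groups, 104 of the 123 varied less than miR-103-3p and 92 less than miR-107-3p. For miR-103-3p the SD was 0.57 in CLP and 0.91 in sham, and for miR-107-3p it was 0.40 in CLP and 0.86 in sham.

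The pair was then ranked with 32 miRNAs in use as blood references by stability M, the mean SD of the log2 ratio to each other candidate. M needs no scaling, and a low M means a steady ratio. Over all 15 libraries M includes the difference between groups known when the members were chosen, and within 1 group it does not. miR-103-3p had M = 1.22 and rank 30 of 34, and miR-107-3p had M = 1.06 and rank 24. The lowest values were those of miR-30e-5p at 0.791, miR-16-5p at 0.798, miR-181a-5p at 0.798, let-7g-5p at 0.856 and miR-425-5p at 0.857. The highest were those of miR-423-5p at 2.28, miR-191-5p at 1.79 and let-7a-5p at 1.42. Among the 9 CLP libraries alone, miR-107-3p ranked 7 and miR-103-3p ranked 27. Among the 6 sham libraries alone miR-107-3p ranked 33 and miR-103-3p ranked 32. The sham libraries were split in level, and sham 4 held only 18.5 counts of miR-107-3p. The part of this split and of counting error in the sham ranks was not tested. With each library left out in turn, ranks stayed at 27 to 30 for miR-103-3p and at 21 to 25 for miR-107-3p.

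**Figure D4:**
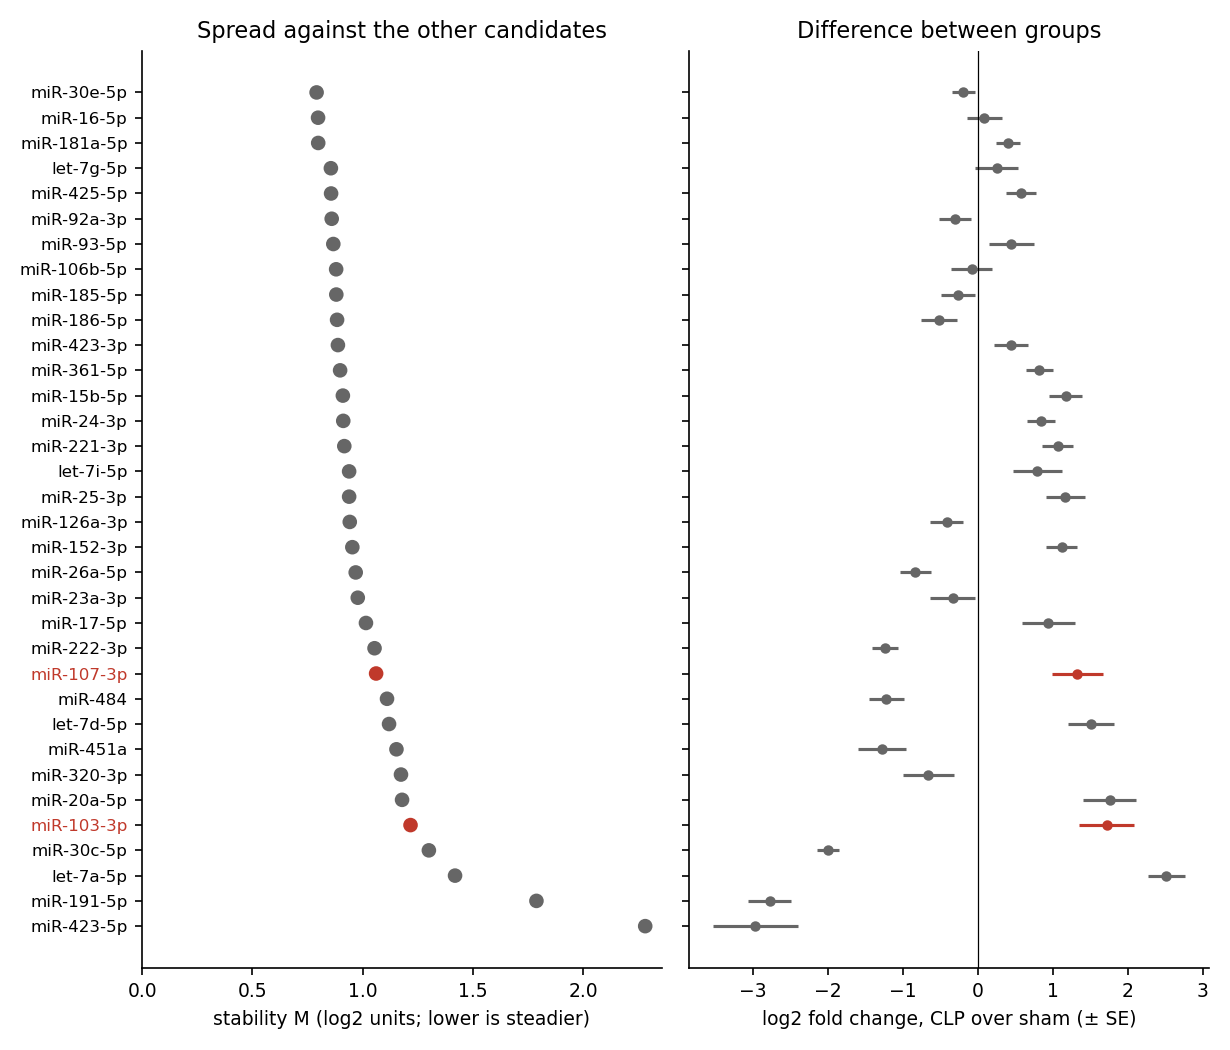
Left, stability M in log2 units of 32 reference candidates and the pair (red), lowest at the top; right, their log2 fold change, CLP over sham, with SE bars. miR-103-3p stands near the bottom at 1.22, and the 3 with the highest M lie more than 2 log2 units from 0.

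The candidates as a list were not free of differences between the groups. Of the 32, edgeR called 19, or 59.4%, against 47.2% over all tested miRNAs, with 12 higher and 7 lower in CLP and a median log2 fold change of 0.17. With library size alone as the scaling, which lowers the median of all miRNAs by 0.23, 9 were higher and 12 lower. The closest to no difference among those used below was miR-16-5p. The farthest among those used below was miR-191-5p. It fell, with 5450 ± 2419 CPM in CLP and 37342 ± 3797 CPM in sham (SD), every CLP library below every sham library. Its log2 fold change was -2.78 ± 0.28 (SE, edgeR adjusted p = 4.37e-07). Every CLP library was below every sham library in 11.3% of the tested miRNAs.

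To show what use of each miRNA as reference does to the rest, the fit was repeated with the count of that miRNA as library size. Such scaling takes the difference of the reference away from every other miRNA. With a member as reference, the counts of calls therefore restate the difference for which it was chosen and are no further test. Scaled to miR-103-3p, 310 of 425 miRNAs were called lower in CLP and 1 higher, 73.2% in all, and the median log2 fold change was -1.82. Scaled to miR-107-3p, 281 were called lower and 7 higher, 67.8% in all, with a median of -1.55. Each median lies near the negative of the log2 fold change of the member itself, 1.72 and 1.33. All 93 miRNAs called lower under TMM scaling stayed lower with either member. Of the other miRNAs called higher under TMM scaling, 81 lost their call and 25 turned to a call of lower when scaled to miR-103-3p. With miR-107-3p, 87 lost their call and 13 turned. With at least 10 CPM in 6 libraries as the filter, fewer miRNAs were tested and 194 were called with miR-103-3p and 181 with miR-107-3p. Among the 225 not called under TMM scaling, 192 became lower with miR-103-3p and 175 with miR-107-3p.

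miR-16-5p shows the shift on 1 miRNA. Its log2 fold change was 0.09 ± 0.23 under TMM scaling, -1.69 ± 0.40 when scaled to miR-103-3p and -1.44 ± 0.33 when scaled to miR-107-3p (SE). The single miRNA called higher against miR-103-3p was miR-208b-3p, a heart and muscle miRNA, at a log2 fold change of 2.34 ± 0.98 (SE). It was scarce, with means of 3.88 CPM in CLP and 0.129 CPM in sham and counts in only 1 sham library. Against miR-107-3p the 7 were miR-208b-3p, miR-1a-3p of striated muscle, let-7a-5p, let-7f-5p, miR-223-5p, miR-147-3p and miR-493-5p.

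**Figure D5:**
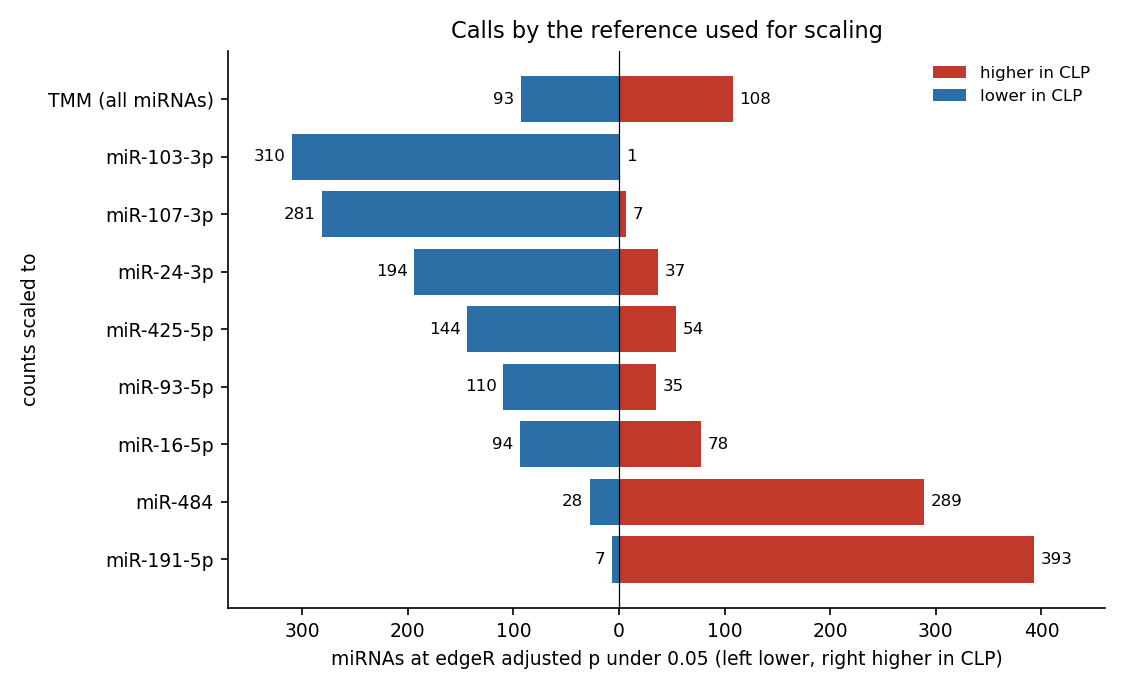
Number of miRNAs at edgeR adjusted p under 0.05 by the scaling used (rows), with those higher in CLP to the right of 0 and those lower in CLP to the left. TMM gave 108 higher and 93 lower, miR-103-3p and miR-107-3p gave almost only lower calls, and miR-484 and miR-191-5p gave mostly higher calls.

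The plot of calls by scaling sets the pair beside other references. Scaled to miR-16-5p, 78 miRNAs were called higher and 94 lower (40.5%), the nearest of the 8 references to the TMM split. miR-93-5p gave 35 higher and 110 lower (34.1%), miR-425-5p gave 54 higher and 144 lower (46.6%), and miR-24-3p gave 37 higher and 194 lower (54.4%). The opposite tilt came from miR-484, with 289 higher and 28 lower (74.6%), and from miR-191-5p, with 393 higher and 7 lower (94.1%). Under TMM scaling miR-24-3p rose (0.84 ± 0.18) and miR-425-5p rose (0.58 ± 0.20), while miR-484 fell (-1.22 ± 0.23), with edgeR adjusted p of 0.00111, 0.0221 and 0.00035 for the log2 fold changes (± SE) in that order. miR-93-5p was not called, at 0.44 ± 0.30 (SE, edgeR adjusted p = 0.227), and passed only without sham 2 (0.0406) of 28 settings, the others reaching up to 0.605. The call of miR-425-5p ended under 12 of 28 settings, where the adjusted p ran from 0.00268 to 0.183. Among single omissions it ended without CLP 4, CLP 7, CLP 8, sham 3, sham 4 or sham 6.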

How the data were processed

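Plasma small RNA was sequenced in 15 libraries, 9 CLP and 6 sham. Per the labels' protocols, Trizol LS was used for extraction and a Norgen Biotek kit for ligation of adapters, PCR and gel excision. The deposited table holds expected counts per miRNA, not scaled for depth. Its name gives exceRpt, a small RNA pipeline, and mm10 is the genome named by the submitters' processing notes. The aligner, mismatches allowed, trimming and any molecular identifiers are not given in the sources used here.

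Counts were rounded and tested with edgeR 4.0.16 in R 4.3.3 (filterByExpr, TMM, robust quasi-likelihood F test, two-sided, Benjamini-Hochberg over 426 rows). The biological coefficient of variation was 0.463, and tested rows held at least 99.97% of each library. The SE of a log2 fold change was its size over the square root of F. SD of log2 CPM and stability M used a pseudocount of 0.5. Fits and ranks were tested on simulated data. Alternatives were DESeq2 1.42.0, limma voom 3.58.1, other scalings and filters, a replicate block, a red cell covariate, removal of the GC trend, and omission of libraries. Sequences came from RefSeq tables, with 1003 of 1205 rows matched.

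The members and lists were chosen with earlier results of these data known. Named miRNAs were the pair, its 5p arms, the AGCAGC relatives, the 5 lowest and 3 highest M, the 6 other scaling references, the 5 closest correlations of each member and the 5 lowest SD. The miRNAs called higher against each member were named after their values were seen.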

Additional observations from a re-analysis of the deposited data

Results flagged for a closer look

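The ratio of summed miR-103 5p counts to miR-103-3p set 1 library apart. Sham 6 held 2.87 5p counts per 100 miR-103-3p counts, and the other 5 sham libraries held 9.18 to 10.4. The gap to its nearest neighbour, as a share of the range of the sham group, passed Dixon's 95% critical value. Its value rests on 5 summed 5p counts. It was the only value of the 12 groups of values examined to do so, and chance alone sets apart about 1 group in 20. The CLP group had none.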

How the results depend on the processing

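Under 13 other settings the log2 fold change ran from 1.47 to 1.85 for miR-103-3p and from 1.09 to 1.64 for miR-107-3p. Both were lowest with library size alone. The value of 1.64 came from the setting that treated the pair as 1 row, so it is not that of miR-107-3p alone. Single omissions gave 1.46 to 1.93 and 1.05 to 1.54. All miRNAs called ran from 184 to 213 with single omissions and reached 307 with no filter (140 higher, 167 lower). With library size alone 90 were higher and 126 lower. Reference candidates called ran from 16 to 21. Only 1 AGCAGC relative was called with the red cell covariate.

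Same-numbered CLP and sham libraries did not vary together (correlations of -0.16 to -0.03). The labels do not say whether the numbers pair libraries, and correlations of so few libraries cannot settle it. With the replicate block over replicates 1 to 6, miR-103-3p stood at 1.83 and miR-107-3p at 1.47, all miRNAs called came to 152, AGCAGC relatives called to 1, and calls scaled to miR-107-3p to 189.

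Calls scaled to miR-103-3p were 194 with at least 10 CPM in 6 libraries, where fewer miRNAs are tested, and 530 with no filter, and those scaled to miR-107-3p were 181 and 465 in that order. Single omissions gave 282 to 333 and 246 to 304.

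Small values of uncalled miRNAs turned sign, and the cause was not tested. miR-103-2-5p was -0.14 with the red cell covariate and -0.082 to 0.60 with single omissions. miR-16-5p was -0.14 with library size alone, -0.013 with upper-quartile factors, -0.066 with the 10 CPM filter, -0.092 without CLP 1 and CLP 5, -0.079 with the GC trend removed and -0.11 to 0.26 with single omissions. miR-503-5p was 0.029 with the covariate and 0.21 with the GC trend removed. miR-322-5p was -0.046 with limma voom, -0.23 with the block and -0.0086 with the GC trend removed. Depth limits miR-107-3p and the 5p arms most, with 18.5 counts of miR-107-3p in sham 4.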
